A study of Mus musculus with 6 samples.

Results

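The 9 genes examined encode the inflammasome's sensors, adaptor, caspases and pore-forming effector: Nlrp3, Mefv, Aim2, Nlrc4, Pycard, Casp1, Casp4, Casp8 and Gsdmd. They were chosen by symbol from the 22800 genes of the deposited table, and all 9 were found. The libraries came from cells in the bronchoalveolar lavage fluid of mice, the saline wash of airways and alveoli. One group of 3 (replicates 2, 3 and 4) had received vehicle, and the other group of 3 (replicates 1, 2 and 3) had received 20 µg of sulfatide into the peritoneal cavity. Sulfatide is a sulfated glycolipid that CD1d presents to type II natural killer T cells, and the series' title places the comparison in a study of alveolar macrophages in lung ischemia and reperfusion. The labels give no strain, age or genotype and do not state whether these mice underwent ischemia and reperfusion. They also do not state whether each library came from its own animal, and p-values therefore reflect the scatter of these libraries, part of which could be technical.

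An inflammasome is a complex that macrophages assemble in the cytosol when a sensor meets its trigger. NLRP3 responds to membrane and ion disturbance, pyrin (encoded by Mefv) to the action of certain bacterial toxins, AIM2 to double-stranded DNA, and NLRC4, together with NAIP proteins, to bacterial flagellin and secretion systems. The adaptor ASC (Pycard) links sensors to caspase-1, which cuts the precursors of interleukin-1 beta and interleukin-18 and cuts gasdermin D, whose freed end forms pores in the plasma membrane. Mouse Casp4 encodes caspase-11, which binds lipopolysaccharide in the cytosol and cuts gasdermin D without a sensor complex. Caspase-8 starts extrinsic apoptosis, restrains necroptosis and can also act downstream of ASC. Much of this machinery is controlled after translation, and transcript levels do not measure assembly, cleavage or pore formation.

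The sequence upstream of the RefSeq start is shown for 4 members whose results are set against each other below: Nlrp3, the member with the largest difference, the neighbouring caspase genes Casp1 and Casp4, and Pycard, which changed in the other direction. Sequences are from RefSeq, build GRCm38.p6 (the mm10 assembly), cover 250 bases, and run 5′ to 3′ on the gene's own strand to the base before the start site. Positions are chr11:59541319-59541568 on the plus strand for Nlrp3, the upstream one of its 2 listed starts, chr9:5298267-5298516 on the plus strand for Casp1, chr9:5308599-5308848 on the plus strand for Casp4, the first of its 2 listed starts, and chr7:127993868-127994117 on the minus strand for Pycard. Capitals mark matches to the kappaB consensus (Nlrp3, Casp4) or to the PU.1 core GAGGAAGT on either strand (Pycard).
Nlrp3: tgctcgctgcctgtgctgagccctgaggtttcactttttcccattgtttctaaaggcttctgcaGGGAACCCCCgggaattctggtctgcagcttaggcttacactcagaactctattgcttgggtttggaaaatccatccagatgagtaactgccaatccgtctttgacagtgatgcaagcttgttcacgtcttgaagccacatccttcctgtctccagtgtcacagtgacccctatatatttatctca
Casp1: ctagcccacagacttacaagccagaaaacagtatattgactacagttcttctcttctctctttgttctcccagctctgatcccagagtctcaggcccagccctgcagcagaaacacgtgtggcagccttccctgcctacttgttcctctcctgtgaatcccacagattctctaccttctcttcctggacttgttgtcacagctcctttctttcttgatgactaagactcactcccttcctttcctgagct
Casp4: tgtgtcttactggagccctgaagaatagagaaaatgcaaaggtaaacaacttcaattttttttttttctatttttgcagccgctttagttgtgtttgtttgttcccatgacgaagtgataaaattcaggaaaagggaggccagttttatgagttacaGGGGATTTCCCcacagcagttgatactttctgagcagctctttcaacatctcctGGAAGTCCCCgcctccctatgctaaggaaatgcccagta
Pycard: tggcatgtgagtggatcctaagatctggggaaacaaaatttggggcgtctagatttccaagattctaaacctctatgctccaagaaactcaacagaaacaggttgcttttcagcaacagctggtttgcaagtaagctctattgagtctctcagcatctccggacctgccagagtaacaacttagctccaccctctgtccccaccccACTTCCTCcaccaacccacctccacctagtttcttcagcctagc

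A set of 5 motifs was searched on both strands in such windows: the ISRE core (GAAA, any 2 bases, GAAA), the GAS core TTCNNNGAA, the kappaB consensus, the PU.1 core GAGGAAGT and the AP-1 core TGANTCA. The 9 members had 10 listed start sites in 8 genes, and Gsdmd had none. A kappaB match was found upstream of Nlrp3 (1 of its 2 starts) and of Casp4 (both starts, which lie 11 bases apart and share their matches), and 7.25% of all 32851 promoters of the same length held one. In Casp4 a pair of overlapping kappaB matches and a separate match on the other strand fell within 93 bases of the start, and in Nlrp3 the match began 186 bases upstream. A PU.1 match was found upstream of the listed start of Aim2 and of that of Pycard, against 2.44% of all promoters. The Aim2 window, chr1:173420354-173420603, lies inside the gene span given for Aim2 below. No member window held the ISRE, GAS or AP-1 letters, which 2.98%, 7.02% and 6.75% of all promoters did. A match describes letters only and is neither a measured binding site nor a cause.

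Of the 9 members, 6 were lower in sulfatide than in vehicle (Nlrp3, Mefv, Casp1, Casp4, Casp8 and Gsdmd), 1 was higher (Pycard), and 2 did not pass (Aim2 and Nlrc4). A gene was called at a limma adjusted p below 0.05 over the 10405 genes tested, those at 1 FPKM or more in 3 or more libraries, and all 9 members were among them. FPKM, the authors' unit, are fragments scaled to transcript length and library total, which puts genes on a common scale. The annotation that gave the lengths is not named, so the order of genes at close levels is uncertain. Over all genes tested, 10.4% were called lower and 8.31% higher, 18.7% in all (1078 and 865 genes, or 1516 and 468 after rescaling each library to TPM). The median log2 difference was -0.44 over the 9 members and 0.04 over all genes tested. The groups did not overlap for 8 of 9 members, 7 lower and 1 higher, while 37.0% of all genes tested did not overlap (18.3% lower and 18.6% higher). The direction was the same for 8 members under all 15 alternative settings, and only Nlrc4 changed sign; leaving out a library cannot turn the direction where groups do not overlap. The number of members called lower was nevertheless 2 without vehicle replicate 2 and 3 without vehicle replicate 4 or any 1 of the 3 sulfatide libraries, and it was 7 without vehicle replicate 3. Nlrp3 and Mefv were called under every one of those settings.

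**Figure D1:**
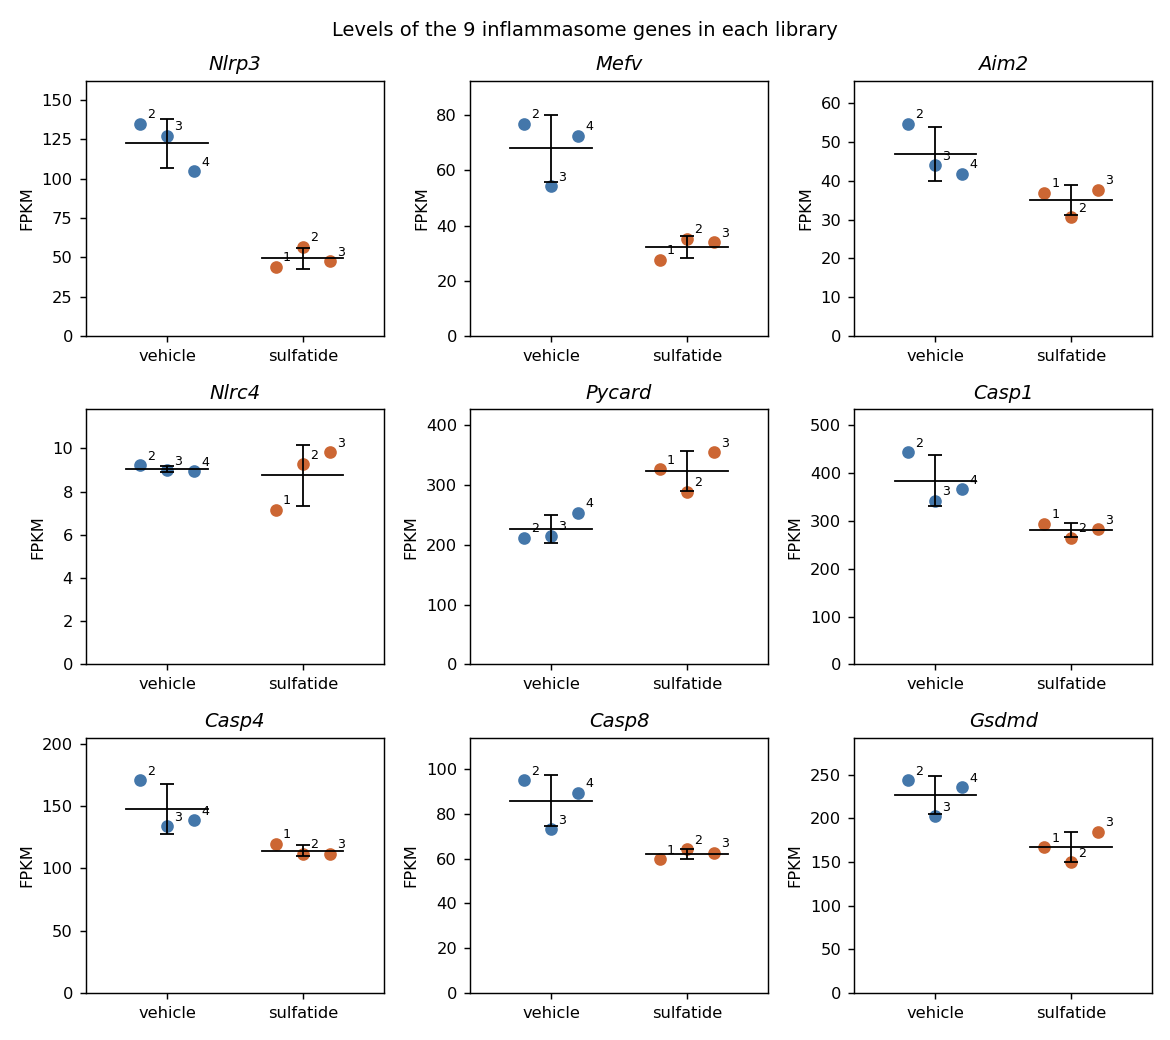
FPKM (vertical axes, each from 0) of the 9 members in each library: points are libraries with their replicate number, the horizontal line is the group mean and the bars are the SD (n = 3 per group). The groups are apart in every panel but that of Nlrc4, and Pycard alone is higher in the sulfatide libraries.

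The sensors held both the largest and the smallest difference among the members. Nlrp3 (gene ID 216799, chromosome 11, 59541569 to 59566955) was at 135 FPKM, 127 FPKM and 105 FPKM in vehicle replicates 2, 3 and 4 and at 44.1 FPKM, 56.7 FPKM and 47.4 FPKM in sulfatide replicates 1, 2 and 3. Every vehicle library was well above every sulfatide library. The mean fell from 122 ± 15.7 to 49.4 ± 6.54 FPKM (SD, n = 3 each), 2.48-fold, with a log2 difference of -1.29 ± 0.13 (SE) on the log2(FPKM + 1) scale and a limma adjusted p of 0.000217 (2.08e-05 to 0.00206 over the alternatives). Only 179 of the 10405 genes tested had a lower log2 difference.

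Mefv (gene ID 54483, chromosome 16, 3706974 to 3718211) encodes pyrin, the sensor mutated in familial Mediterranean fever. It was at 76.9 FPKM, 54.3 FPKM and 72.5 FPKM in the vehicle libraries and at 27.6 FPKM, 35.2 FPKM and 33.9 FPKM in the sulfatide libraries. The lowest vehicle library, replicate 3, still exceeded the highest sulfatide library, replicate 2. The mean fell 2.11-fold, from 67.9 ± 12.0 to 32.2 ± 4.10 FPKM (log2 difference -1.04 ± 0.15, limma adjusted p = 0.00146, and 0.000126 to 0.0122 over the alternatives). Neutrophils also express Mefv. The summed level of the 10 neutrophil markers was 179 to 247 FPKM in vehicle and 463 to 640 FPKM in sulfatide, with 2 of the 7 tested markers called higher (S100a8 and Mmp8) and none lower. S100a8 made up 46.0 to 51.2% of that sum in vehicle and 73.6 to 77.9% in sulfatide. The median log2 difference of the 7 tested markers was -0.15. It was 1.98 for S100a8, 0.82 for Mmp8 and 0.33 for Csf3r. Mmp9, Camp, Ngp and S100a9 went the other way (-0.65, -0.45, -0.24 and -0.15), none of them called, and the groups did not overlap for Camp. Over the 6 libraries Csf3r was at 40.6 to 68.9 FPKM, Mmp8 at 16.7 to 51.8 FPKM, S100a9 at 10.97 to 35.2 FPKM, Mmp9 at 2.38 to 7.27 FPKM, Camp at 3.22 to 5.62 FPKM and Ngp at 1.02 to 3.76 FPKM. Ly6g, Cxcr2 and Retnlg reached at most 0.18 FPKM, 0.12 FPKM and 0.45 FPKM. The part of neutrophils in the Mefv level was not tested.

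Aim2 (gene ID 383619, chromosome 1, 173349547 to 173466040), the DNA sensor, was at 54.8 FPKM, 44.1 FPKM and 41.9 FPKM in vehicle and at 37.0 FPKM, 30.7 FPKM and 37.8 FPKM in sulfatide. The groups lay close together without overlapping. The mean was 46.9 ± 6.93 and 35.1 ± 3.91 FPKM, a log2 difference of -0.40 ± 0.13 that missed the threshold (limma adjusted p = 0.0561), with a 95% interval of -0.69 to -0.12. It passed without vehicle replicate 3 (adjusted p = 0.0491), after rescaling to TPM (log2 difference -0.51, adjusted p = 0.0203) and with array weights (0.0136). The adjusted p ranged from 0.0136 to 0.201 over the alternatives.

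Nlrc4 (gene ID 268973, chromosome 17, 74426255 to 74459144) was the least abundant member, at 9.21 FPKM, 8.99 FPKM and 8.95 FPKM in vehicle and at 7.15 FPKM, 9.26 FPKM and 9.83 FPKM in sulfatide. The 3 vehicle libraries were almost level, and the sulfatide libraries lay on both sides of them. The log2 difference was -0.05 ± 0.13 (95% interval -0.34 to 0.23, limma adjusted p = 0.793), so a change of the size seen in Nlrp3 lay outside its interval.

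Pycard (gene ID 66824, chromosome 7, 127991373 to 127993867), the adaptor that most sensors need to reach caspase-1, moved in the other direction. It was at 211 FPKM, 215 FPKM and 253 FPKM in vehicle and at 326 FPKM, 288 FPKM and 354 FPKM in sulfatide. The highest vehicle library, replicate 4, was below the lowest sulfatide library, replicate 2. The mean rose 1.42-fold, from 227 ± 23.3 to 323 ± 33.4 FPKM (log2 difference 0.51 ± 0.11, limma adjusted p = 0.0119, and 0.00104 to 0.0663 over the alternatives). It did not pass without vehicle replicate 2 (0.0663) or without sulfatide replicate 3 (0.0537). After rescaling to TPM the log2 difference was 0.40 and Pycard was still called. Gm45205, a transcript that GENCODE lists as awaiting experimental evidence, overlaps Pycard on the opposite strand and holds 10.9% of the 75-base windows of the Pycard transcripts in GENCODE M21. Since it is not stated whether counting used the strand, fragments from those shared windows cannot be told apart.

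The inflammatory caspases fell by similar, small amounts. Casp1 (gene ID 12362, chromosome 9, 5298517 to 5307281), which encodes the enzyme that matures interleukin-1 beta, was at 444 FPKM, 342 FPKM and 367 FPKM in vehicle and at 295 FPKM, 265 FPKM and 283 FPKM in sulfatide. The groups did not overlap, and vehicle replicate 2 stood highest. The mean fell 1.37-fold, from 384 ± 53.2 to 281 ± 14.7 FPKM (log2 difference -0.44 ± 0.11, limma adjusted p = 0.0214, and 0.00242 to 0.0825 over the alternatives). It did not pass without vehicle replicate 2 (0.0825), sulfatide replicate 2 (0.0557) or sulfatide replicate 3 (0.0655), or with the replicate number as a block (0.0609).

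Casp4 (gene ID 12363, chromosome 9, 5308849 to 5336791) follows Casp1 on the same strand, with 1562 bases between them in GENCODE M21. It was at 170 FPKM, 134 FPKM and 139 FPKM in vehicle and at 120 FPKM, 111 FPKM and 112 FPKM in sulfatide. Its libraries kept the same order within the vehicle group as those of Casp1, again without overlap of the groups. The mean fell 1.29-fold, from 148 ± 19.9 to 114 ± 4.67 FPKM (log2 difference -0.36 ± 0.10, limma adjusted p = 0.0433). That call was the least stable of the 6: it was lost under 9 of 15 alternatives, among them the fits without vehicle replicate 2 (0.158) or 4 (0.0719) and without sulfatide replicate 1 (0.0781), 2 (0.0872) or 3 (0.129), and adjusted p was 0.00477 to 0.158 over all of them. No 75-base window of the Casp1 or Casp4 transcripts occurs in a transcript of another gene, so fragments of that length can be told apart.

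Casp8 (gene ID 12370, chromosome 1, 58795233 to 58847503) was at 95.01 FPKM, 73.3 FPKM and 89.6 FPKM in vehicle and at 59.7 FPKM, 64.3 FPKM and 62.7 FPKM in sulfatide. The 3 sulfatide libraries were close together and below every vehicle library. The mean fell 1.38-fold, from 86.0 ± 11.3 to 62.2 ± 2.35 FPKM (log2 difference -0.45 ± 0.11, limma adjusted p = 0.0208, and 0.00172 to 0.115 over the alternatives). It did not pass without vehicle replicate 2 (0.0968) or 4 (0.0715), or without sulfatide replicate 1 (0.0672) or 3 (0.0637). Of the 75-base windows of its transcripts, 1.95% also occur in the transcript Gm20257.

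Gsdmd (gene ID 69146, chromosome 15, 75862144 to 75867408), the pore-forming substrate of caspase-1 and caspase-11, was at 244 FPKM, 202 FPKM and 236 FPKM in vehicle and at 167 FPKM, 150 FPKM and 185 FPKM in sulfatide. No sulfatide library reached the lowest vehicle library. The mean fell 1.36-fold, from 227 ± 21.9 to 167 ± 17.5 FPKM (log2 difference -0.44 ± 0.11, limma adjusted p = 0.0218, and 0.00591 to 0.154 over the alternatives). It did not pass without vehicle replicate 2 (0.105) or 4 (0.0737), or without sulfatide replicate 1 (0.0582) or 2 (0.0548). The same held with the replicate number as a block (0.154).

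**Figure D2:**
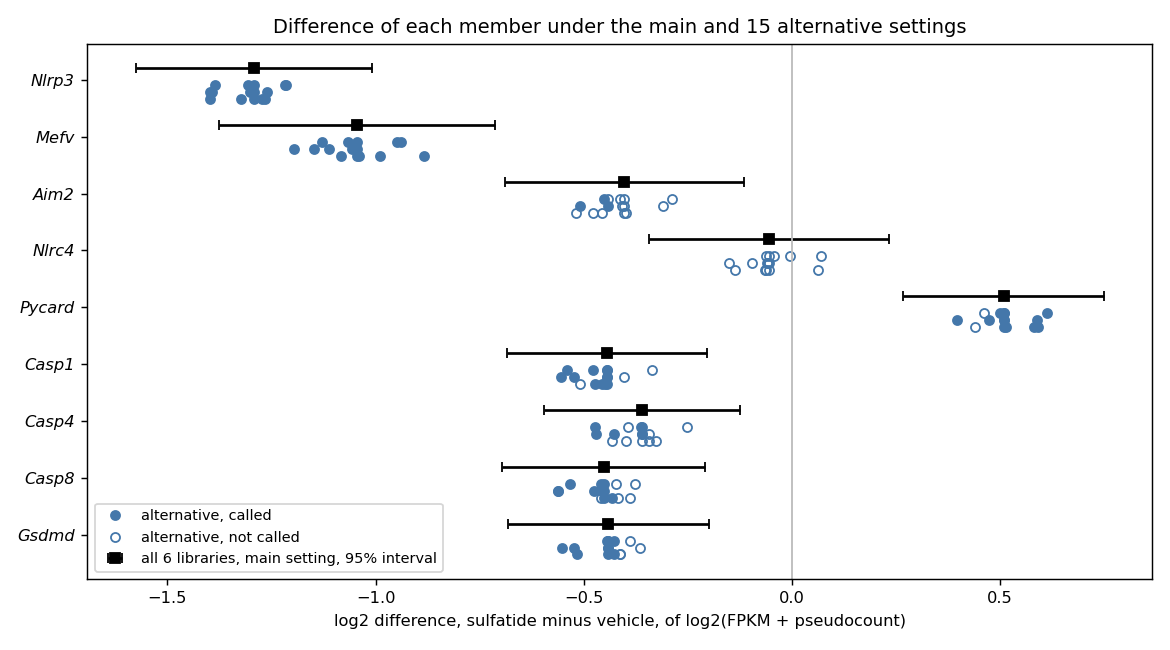
Log2 difference (sulfatide minus vehicle, horizontal axis) of each member: the square is the value from all 6 libraries with its 95% interval, and circles are the 15 alternative settings, filled where the gene was called. The circles of Nlrp3 and Mefv are all filled, those of Pycard stay right of 0, and those of Nlrc4 fall on both sides of 0.

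The order of levels among the members differed between the groups at its top and in its middle. In vehicle the mean FPKM ran from Casp1 down through Gsdmd, Pycard, Casp4, Nlrp3, Casp8, Mefv and Aim2 to Nlrc4. Within each of the 3 vehicle libraries the same order held for every pair of neighbours but Gsdmd and Pycard, where Gsdmd was the higher in 1 of 3. The group ranges nevertheless overlapped between Casp4 and Nlrp3, Casp8 and Mefv, and Mefv and Aim2. In sulfatide Pycard stood at the top, above Casp1 in all 3 libraries although their ranges overlapped, and Nlrp3 was below Casp8 with no overlap. Aim2 was above Mefv in 2 of the 3 sulfatide libraries. The 9 genes together made up 0.103 to 0.127% of the summed FPKM in the vehicle libraries and 0.0830 to 0.0906% in the sulfatide libraries. Vehicle replicates 2, 3 and 4 were above their group mean for 8, 1 and 4 of 9 members. For sulfatide replicates 1, 2 and 3 the numbers were 5, 4 and 7. The same count was not made over all genes tested, so it is not known whether this is particular to the members.

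Ratios within a library do not depend on how that library was scaled, and 12 were compared. With 3 against 3 libraries the exact 2-sided permutation test cannot go below 0.1, and 11 of the 12 ratios, whose groups did not overlap, gave that value (0.109 after Benjamini-Hochberg adjustment over the 12). The sensor-to-adaptor ratios were lower in sulfatide libraries for each sensor. Nlrp3 to Pycard was 0.639, 0.592 and 0.414 in vehicle and 0.135, 0.197 and 0.134 in sulfatide, 3.53-fold lower by the mean log ratio. Mefv to Pycard was 2.99-fold, Aim2 to Pycard 1.90-fold and Nlrc4 to Pycard 1.49-fold lower. For Nlrc4 the numerator had a log2 difference of -0.05 and the denominator one of 0.51. Casp1 to Pycard went from 1.71 ± 0.344 to 0.874 ± 0.0672 (SD, n = 3 each), so that Casp1 exceeded Pycard in all 3 vehicle libraries and was below it in all 3 sulfatide libraries.

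Among the effectors the ratios were nearly level. Gsdmd to Casp1 was 0.594 ± 0.0474 in vehicle and 0.595 ± 0.0513 in sulfatide (exact permutation p = 1), and the log2 difference stayed between -0.07 and 0.06 when each library was left out in turn. Casp4 to Casp1 was 0.384 ± 0.00613 and 0.407 ± 0.0128, a log2 difference of 0.08 without overlap of the groups. Casp8 was also set against its partners. Relative to Cflar, which encodes the caspase-8 inhibitor c-FLIP, Casp8 was higher in sulfatide (1.52 ± 0.147 to 2.25 ± 0.152), and relative to the adaptor Fadd it was lower (4.41 ± 1.06 to 2.99 ± 0.222).

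**Figure D3:**
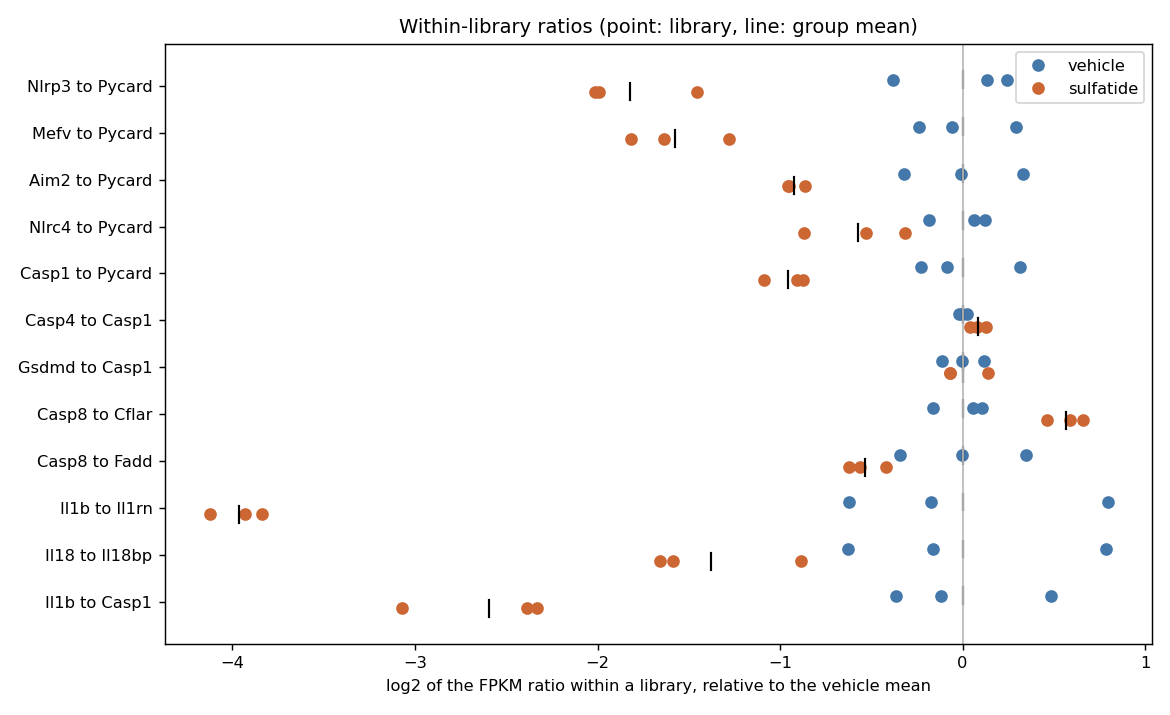
Log2 of 12 FPKM ratios within each library, relative to the mean of the vehicle libraries (horizontal axis): points are libraries and short lines are group means. The groups are apart for 11 ratios and overlap for Gsdmd to Casp1.

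The cytokine genes whose products the pathway matures or releases fell. Of 8 tested genes in the list of products and antagonists, 3 fell (Il1a, Il1b and Il18), 1 rose (Il1rn) and 4 did not pass. The share called was 50% and the median log2 difference -0.25, against 18.7% and 0.04 over all genes tested. Il1b, the main caspase-1 substrate among the cytokines, was at 2361, 2757 and 1641 FPKM in vehicle and at 202, 304 and 312 FPKM in sulfatide. Il1rn, the receptor antagonist of interleukin-1, was at 813, 485 and 770 FPKM in vehicle and at 1074, 1418 and 1364 FPKM in sulfatide (log2 difference 0.92 ± 0.19, limma adjusted p = 0.0112). The 2 genes thus changed places: Il1b to Il1rn was 2.91, 5.68 and 2.13 in vehicle and 0.188, 0.215 and 0.229 in sulfatide, 15.6-fold lower by the mean log ratio (exact permutation p = 0.1, the smallest possible). Il1b to Casp1 was 6.05-fold lower. Il1a, a cytokine released when gasdermin D pores open or cells rupture, fell 14.6-fold (175 ± 52.3 to 12.0 ± 2.67 FPKM). Il18 fell from 87.4 ± 15.2 to 23.1 ± 3.34 FPKM, and its binding protein gene Il18bp was at 21.2 ± 8.18 and 13.8 ± 2.07 FPKM (limma adjusted p = 0.212). Il18bp was called lower in sulfatide without vehicle replicate 3 (0.00261) and with array weights (0.0268). Il18 to Il18bp was 2.60-fold lower, again with no overlap.

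The other sensors and their helpers comprised 16 genes, of which 8 were tested, 4 fell and 1 rose (median log2 difference -0.27). The share called was 62.5%, against 18.7% over all genes tested. The peptidoglycan sensors Nod1 (28.6 ± 4.05 to 9.51 ± 1.13 FPKM) and Nod2 (8.62 ± 0.282 to 2.51 ± 0.542 FPKM) fell 3.01-fold and 3.43-fold, and Nlrc5, the activator of MHC class I genes, fell 3.06-fold. Nlrx1, a mitochondrial family member, rose from 4.86 ± 1.05 to 7.34 ± 0.452 FPKM (limma adjusted p = 0.0387). It did not pass without vehicle replicate 2 (0.132), without sulfatide replicate 1 (0.0876), 2 (0.0854) or 3 (0.0833), or after rescaling to TPM (0.0772). The same held with no filter (0.0877) and with the replicate block (0.0799). Of the genes for NAIP partners of NLRC4, Naip2 was at 36.0 ± 2.18 and 40.8 ± 2.26 FPKM and Naip5 at 9.84 ± 0.421 and 9.23 ± 1.42 FPKM, neither called. Naip6 was at 1.96 ± 0.199 and 1.18 ± 0.185 FPKM and was called lower (limma adjusted p = 0.044), a call that held without vehicle replicate 3 and was lost without any 1 of the other 5 libraries (0.0613 to 0.156). The replicate block also removed the Naip6 call (0.29). The Naip genes share much sequence, so the division of fragments among them is uncertain. Nlrp1b did not exceed 0.76 FPKM and Nlrp12 did not exceed 0.02 FPKM.

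Of 16 assembly factors of NLRP3 and pyrin, all tested, 1 fell and 2 rose (median 0.14), a share called of 18.8% against 18.7% over all genes tested. Pstpip1, which encodes a pyrin-binding protein, rose 1.502-fold (162 ± 13.6 to 243 ± 16.5 FPKM, limma adjusted p = 0.00273), opposite in direction to Mefv. Nek7, the kinase-family partner of NLRP3, fell from 25.4 ± 1.44 to 18.9 ± 2.31 FPKM (adjusted p = 0.0341), a call that held without sulfatide replicate 2 and was lost without any 1 of the other 5 libraries (0.0607 to 0.125). No filter (0.0597) and the replicate block (0.183) also removed the Nek7 call. Panx1, a membrane channel gene, rose 1.29-fold (adjusted p = 0.0379), which held without sulfatide replicate 1 and was lost without any 1 of the others (0.0614 to 0.115) or after rescaling to TPM (0.124). The Panx1 call was also lost with no filter (0.0586), quantile normalization (0.0549), no intensity trend (0.0542) and the replicate block (0.0571). The ATP receptor gene P2rx7 was at 5.37 ± 0.82 and 7.46 ± 0.91 FPKM (adjusted p = 0.0636, and 0.00984 with array weights) and Txnip at 144 ± 17.7 and 137 ± 16.5 FPKM (adjusted p = 0.713).

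Of 5 tested further caspase genes (Apaf1 included), none fell and 2 rose (median 0.28), 40% called against 18.7% over all genes tested. Casp6, an executioner of apoptosis, rose 1.76-fold (40.2 ± 4.88 to 70.8 ± 5.19 FPKM, limma adjusted p = 0.0013). Casp12, which follows Casp4 on chromosome 9 after 8646 bases in GENCODE M21, was at 0.68 FPKM, 0.93 FPKM and 0.90 FPKM in vehicle and at 2.18 FPKM, 1.43 FPKM and 2.74 FPKM in sulfatide. It reached 1 FPKM only in the sulfatide libraries, so the filter admitted it through the group where it was high, and it had to differ to be tested. The call (limma adjusted p = 0.0187, and 0.037 with no filter) was lost without vehicle replicate 2 (0.0829) and with the replicate block (0.0646), and the gene could not be tested with any 1 sulfatide library left out. Of 11 genes for other gasdermins and membrane rupture only Gsdme and Ninj1 were tested, and neither passed. Gsdme was at 2.90 ± 0.438 and 3.78 ± 0.395 FPKM. Ninj1, whose product ruptures the membrane of dying cells, was at 796 ± 72.9 and 639 ± 84.9 FPKM (adjusted p = 0.0792). Ninj1 was called lower without sulfatide replicate 2 (0.045), after rescaling to TPM (0.0362) and with array weights (0.025).

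Of 11 tested genes listed as brakes on the pathway, 4 fell and none rose (median -0.31), 36.4% called against 18.7% over all genes tested. Whether each of them restrains inflammasomes in these cells was not tested. Cflar fell 2.03-fold (56.6 ± 2.08 to 27.8 ± 2.57 FPKM, limma adjusted p = 0.000201). The pyrin-domain gene Pydc4, listed as Ifi213, fell by 2.48 ± 0.27 on the log2 scale. Its relative Pydc3, listed as Ifi208, was at 3.53 FPKM, 1.97 FPKM and 3.20 FPKM in vehicle and at 0.21 FPKM, 0.13 FPKM and 0.58 FPKM in sulfatide. It passed the filter through the vehicle libraries alone and could not be tested with any 1 of them left out, and its call was kept with no filter (limma adjusted p = 0.00432). Both belong to a cluster of similar genes, so their fragment numbers are uncertain. Birc3, an inhibitor of apoptosis, fell 1.24-fold (adjusted p = 0.024), and not without vehicle replicate 2 (0.0999) or sulfatide replicate 1 (0.0934) or 3 (0.0911). Xiap was not called (3.53 ± 0.316 and 2.90 ± 0.669 FPKM).

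Of 12 partners of caspase-8 and of necroptosis, 4 fell and 1 rose (median 0.01), 41.7% called against 18.7% over all genes tested. The necroptosis executioner Mlkl fell 3.18-fold (108 ± 17.97 to 34.1 ± 2.83 FPKM), and the nucleic acid sensor Zbp1 fell 3.01-fold (245 ± 53.8 to 81.38 ± 11.003 FPKM). The kinase gene Ripk3, whose product activates MLKL, rose 1.96-fold (26.0 ± 1.95 to 51.0 ± 4.91 FPKM, limma adjusted p = 0.000428). The death receptor gene Fas fell 1.49-fold, and Tab2 was called at an adjusted p of 0.0492 that was lost without any 1 library but sulfatide replicate 2 (0.0626 to 0.169). Fadd was at 19.8 ± 2.29 and 20.9 ± 1.82 FPKM (adjusted p = 0.699).

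The list for lipopolysaccharide and bacterial entry to caspase-11 also held lipopolysaccharide receptor and signalling genes and the metabolic gene Acod1. Of its 11 genes 9 were lower and none higher, 81.8% called against 18.7% over all genes tested. The median of the list was -1.27, which is the value of Acod1. The guanylate-binding protein genes Gbp7, Gbp5, Gbp3 and Gbp2 fell 7.68-fold, 6.27-fold, 4.16-fold and 2.61-fold, and Gm12250, which encodes IRGB10, fell 3.94-fold. These falls stood beside a 1.29-fold fall of Casp4. Among transcription factors known at member genes 5 of 10 fell and none rose (median -0.31), 50% called against the same 18.7%. Irf7 fell 4.16-fold, Stat2 3.03-fold and Nfkb1 2.40-fold. Rela fell 1.31-fold and Irf1 1.64-fold, neither without vehicle replicate 2 (adjusted p = 0.0626 and 0.0671) and Rela also not without vehicle replicate 4 (0.0572) or sulfatide replicate 1 (0.064) or 3 (0.0633). Irf8, which controls Naip genes, was at 97.9 ± 11.4 and 111 ± 5.51 FPKM (adjusted p = 0.24), and Irf2, known to control Gsdmd, was at 52.2 ± 8.17 and 44.2 ± 4.54 FPKM (adjusted p = 0.247, and 0.0489 without vehicle replicate 3).

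Across the 9 lists together 30 of 83 tested genes fell and 7 rose, 44.6% against 18.7% over all genes tested, and the median log2 difference was -0.12 against 0.04. Of those called, 1 lower (Ifi208) and 1 higher (Casp12) had reached 1 FPKM in the libraries of 1 group only. The lists were chosen with earlier results of these libraries known, so these shares are a description.

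**Figure D4:**
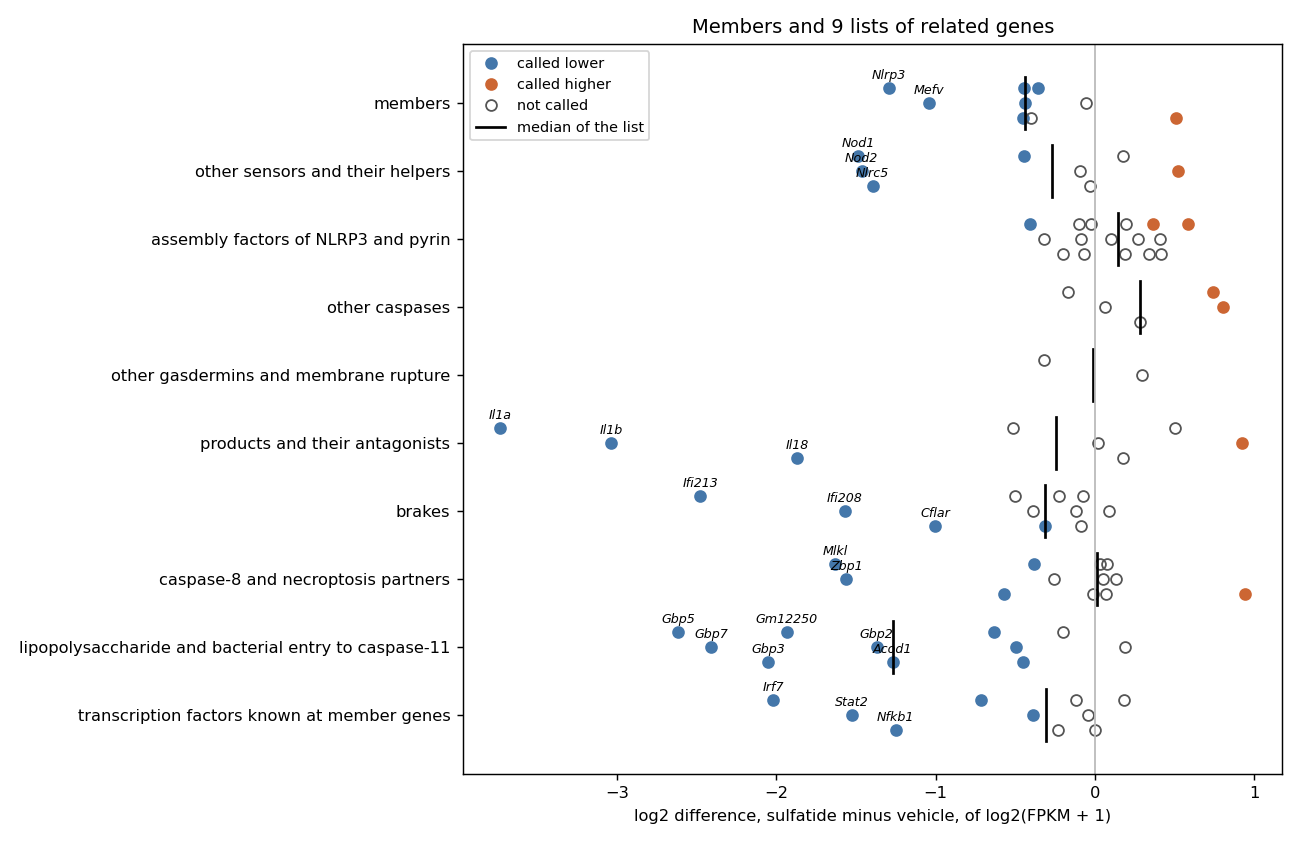
Log2 difference (sulfatide minus vehicle, horizontal axis) of each tested member and each tested gene of 9 related lists: filled points were called, open points were not, and the vertical line in each row is its median. Il1a, Il1b, Gbp5, Ifi213 and Gbp7 lie farthest to the left, and Ripk3, Il1rn and Casp6 lie farthest to the right.

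The genes whose profiles over the 6 libraries were most like those of the called members were found by the root mean square difference of mean-centred log2 values, among 7969 genes with a mean of at least 5 FPKM. Nearest to Nlrp3 were Acod1, Tnfaip3 and Nfkb1 (0.0742, 0.0799 and 0.0805 log2 units). Mefv was nearest to Parp3, Crybg1 and Trim21 (0.0653 to 0.0844). Casp1 and Casp4 were each second on the other's list (0.0514), behind Parp8 for Casp1 and Lilrb4a for Casp4, with Zfp36 and Chpt1 next. Pycard was nearest to Ifitm2, Galk1 and Sesn1, Casp8 to Abtb2, Tmem127 and Zfp800, and Gsdmd to Rnf34, Leng8 and Cutc.

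Summed FPKM were between 1126779 and 1168474 per vehicle library and between 1217971 and 1249691 per sulfatide library. Depth relative to vehicle replicate 2, estimated from the low values, was 0.849 to 1.203. The 7 macrophage markers were present in each library, with none called, at a summed level of 29602 to 34327 FPKM in vehicle and 27052 to 38269 FPKM in sulfatide. Of 10 alveolar macrophage markers, 6 were tested, 1 (Plet1) was lower and none was higher. Plet1 fell 11.7-fold, from 39.7 ± 11.1 to 3.39 ± 1.56 FPKM (limma adjusted p = 0.000114). Only 9 of the genes tested had a lower log2 difference than Plet1. The 4 markers not tested were below 1 FPKM in every library: Fabp1 and Krt79 were listed at 0, Car4 reached at most 0.91 FPKM, and Siglecf was at 0.08 to 0.26 FPKM in vehicle and 0.67 to 0.90 FPKM in sulfatide. Pparg was at 0.50 to 1.17 FPKM. The 10 T, NKT and NK cell markers summed to at most 1.01 FPKM in a library and the 8 epithelial markers to at most 0.23 FPKM. Of the other marker lists, 3 of 6 genes for fibroblasts and endothelium were tested and 1 (Pdgfrb) fell. Of 6 monocyte genes 4 were tested, and of 5 B cell genes only 1 (Cd79b), and none was called. Among the tested monocyte genes only Ccr2 did not overlap between the groups. It was at 3.44 to 4.15 FPKM in vehicle and 4.46 to 7.06 FPKM in sulfatide (limma adjusted p = 0.0851). Of 7 dendritic cell genes 5 stayed below 1 FPKM. The other 2 reached 1 FPKM in 1 group only: Cd209a was listed at 0 in vehicle and was at 1.19 to 2.59 FPKM in sulfatide, and Ccr7 was at 1.63 to 2.31 FPKM in vehicle and 0.41 to 0.81 FPKM in sulfatide. In such bulk libraries a smaller share of cells that express a gene cannot be told apart from less RNA of it per cell.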

How the data were processed

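Cells of mouse bronchoalveolar lavage fluid were profiled by RNA sequencing in 6 libraries, 3 per group, grouped by their titles. Per the labels' protocols, poly(A)-selected, strand-specific (dUTP) libraries were read as pairs on an Illumina platform. Per the submitters' processing notes, reads were placed on mm10. The sources used here name no aligner, counting program or annotation. The authors deposited 1 table of FPKM rounded to 2 decimals, and 3 of its value columns matched no sample and were not used. FPKM are not counts, so absolute depth is unknown and no count model was used. Relative depth was taken from the most frequent ratio of values between 0.1 and 1.5 FPKM.

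Values were analysed as log2(FPKM + 1) for genes at 1 FPKM or more in at least 3 libraries, with limma 3.58.1 in R 4.3.3 (lmFit, eBayes with an intensity trend, 2-sided, Benjamini-Hochberg over all 10405 genes). The script was tested on simulated data. Log2 differences carry their SE and understate changes of low genes. Folds are ratios of mean FPKM, and ratio folds are of mean logs. The alternatives were other pseudocounts (0.1 and 0.5), filters (none and 5 FPKM), scalings (TPM and quantile), array weights, no trend, the replicate number as a block, and each library left out.

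The members and lists were chosen with earlier results of these data known. Genes named were the 9 members, up to 6 called genes with the smallest p of each list, a fixed set, and the 3 nearest profiles. Marker genes were named after their values were seen. Some genes of the lists are not reported here, and the counts leave them out. List symbols absent from the table were matched through RefSeq synonyms. Gene positions and start sites are from RefSeq GRCm38.p6, and overlaps from GENCODE M21.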

Additional observations from a re-analysis of the deposited data

How the results depend on the processing

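With 3 libraries per group, single libraries decided several calls. Of 135 values of members under the 15 alternatives, 107 kept their direction and side of the threshold, 25 no longer passed, 3 newly passed and none reversed with a call; of 664 for the other genes named, the numbers were 604, 53, 7 and 0. Leaving out each library in turn gave 2 to 7 members lower and 0 to 1 higher, 603 to 1136 genes lower and 263 to 1420 higher in the whole table, and 21 to 31 lower and 4 to 8 higher in the related lists. Replicate numbers 2 and 3 occur in both groups, and the labels do not say that they pair libraries. Deviations from the group means correlated at 0.156 for number 2 and -0.303 for number 3. With the replicate number as a block, 2 members (Nlrp3 and Mefv) were lower and Pycard higher, 635 genes were lower and 297 higher, and 13 calls were lost among the genes named. Array weights gave 1723 lower and 2054 higher genes, and 14 higher in the related lists. There were 522 higher genes with no filter and 468 after rescaling to TPM, which moved the median log2 difference of all genes tested from 0.0366 to -0.0627. Depth is known only relative to another library, so no counting interval can be given.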
